A study of Mus musculus with 4 samples.

Results

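The protein parts of the cytosolic ribosome are encoded by a dispersed gene family, and its RNA was measured here in libraries of 4 mouse tumours. Members were taken by symbol: those beginning with Rpl or Rps followed by a number and at most a letter and a further digit, together with Rpsa, Rplp0, Rplp1, Rplp2 and Fau. This gave 89 of 46946 genes in the deposited table, 52 named for the large subunit and 37 for the small one, on 20 chromosomes. Unnamed copies of these genes were left out. Per the sample labels, all 4 tumours were untreated and arose from PDGF K27M neural stem cells, and their titles read PDGFB K27M. K27M is a mutation that replaces a lysine of histone H3. The text for the whole series instead describes an injection of cells of DIPG, a brainstem glioma of children, with the mutant histone, and the files used here do not settle which holds. The tumours form 1 group with no normal brain, cultured cells or unmutated tumour beside them, so the values show levels and their spread between tumours, and no contrast. Libraries were made from polyA RNA of whole tumours, with whatever host cells they held, and with a kit that does not keep the strand.

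The ribosome joins amino acids into protein, and its proteins are made in near equal numbers for assembly with ribosomal RNA in the nucleolus. Vertebrate ribosomal protein mRNAs begin with a pyrimidine tract (the TOP motif), through which mTOR signalling controls their translation together. Their genes have left many processed copies in mammalian genomes, which makes short reads from them hard to place.

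The libraries are called T14, T10, T8 and TUN after their columns, and held 21664889 to 24369339 counts. Levels are given as CPM (counts scaled to library size) within a gene, and as RPKM (CPM per kilobase of exon) between genes. Where 4 values follow each other without names, they are in the order T14, T10, T8 and TUN. The stem cell genes Sox2 and Nes and the glial lineage gene Olig2 were present in every library, Sox2 at 180.8 to 326 CPM, Nes at 316 to 589.7 CPM and Olig2 at 711 to 1151 CPM. Genes of neurons were present too and were unequal between libraries. The summed CPM of 17 neuron markers was 5426 (T14), 5146 (T10), 1390.0 (T8) and 1232 (TUN), and none of these markers was at 0 in any library.

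Members differed in level by several orders of magnitude. Of the 89, 87 had at least 1 count, 79 reached a mean of 1 CPM and 77 reached 1 CPM in all 4 tumours. The highest per length was Rpl8 (chromosome 15, 76904071 to 76906318 in mm10), a protein of the large subunit core, at 637 RPKM (T14), 594 (T10), 1275 (T8) and 1007 RPKM (TUN), a mean of 878 ± 323 RPKM (SD, n = 4). It was followed by Rpl4, which lines the tunnel through which the new protein leaves, at 530.4, 560.1, 1059 and 798 RPKM. The stalk gene Rplp1 came next at 645 ± 242 RPKM, then Rpl13a at 564 ± 233 and Rps15 at 562 ± 191 RPKM (SD, n = 4). Neighbouring means in this order differ by less than the SD of either gene. All 5 genes had T8 as the highest library and TUN as the next. The order of genes by RPKM, here and below, also depends on the length used. That length merges all annotated exons of a gene and can exceed that of its mRNA. Rpl8 and Rps3 both had a mean of 757 CPM, but with lengths of 862 and 4483 bases they stood at 878 and 169 RPKM.

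The lowest of the 77 stood near 1 RPKM. Rpl5, which carries the small ribosomal RNA of the large subunit into the particle, had 0.906 RPKM (T14), 0.883 (T10), 0.727 (T8) and 0.843 RPKM (TUN). Rps13 stood at 0.846 ± 0.0798 RPKM (SD, n = 4), Rpl9 at 0.969 ± 0.211, Rps6, the substrate of S6 kinase, at 1.02 ± 0.135 and Rpl11 at 1.34 ± 0.233. Neighbours in this order differ by less than the larger of their SDs, except Rpl11, which stood above Rps6 by more than either SD.

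**Figure D1:**
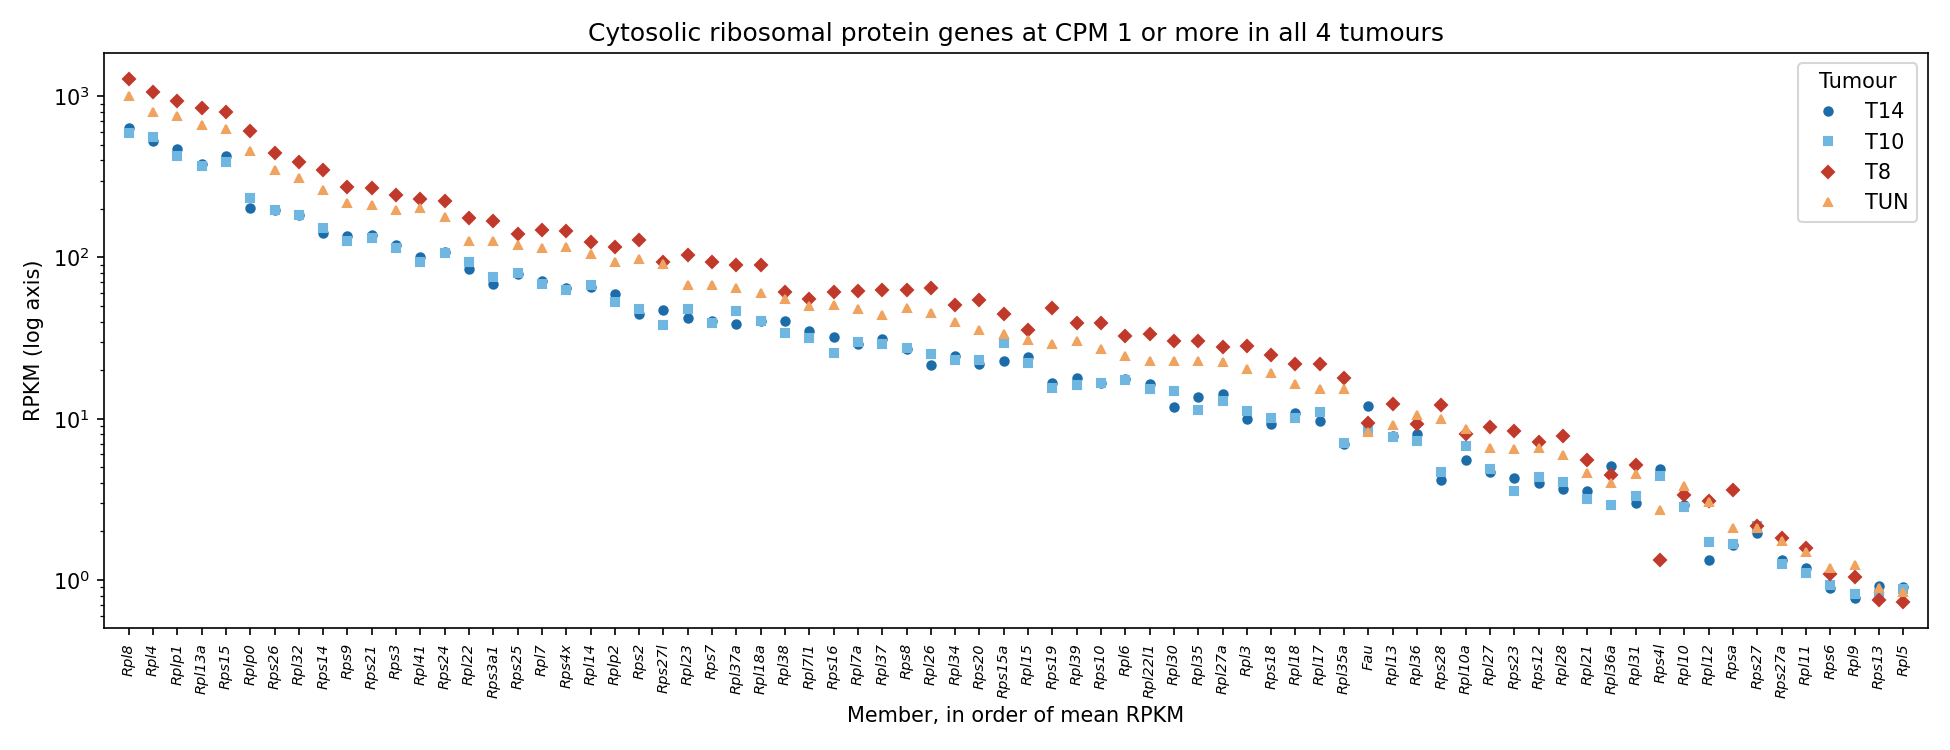
RPKM on a log axis of members at 1 CPM or more in every tumour, without a few that are not reported here, in order of mean RPKM, with 1 point per tumour. Levels run from 878 RPKM for Rpl8 to 0.840 for Rpl5 (means), and in most members the red T8 point is on top with the orange TUN point next.

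The level went with how much of a member's sequence occurs elsewhere in the genome's transcripts. Each 50-base window of 1 transcript per member was looked up in the transcripts of genes at other loci (GENCODE vM21). Across the 89 members, the share of windows found elsewhere and the mean RPKM had a Spearman correlation of -0.476. It was -0.648 over the 82 members without 7 paralogs listed as restricted (Rpl3l, Rpl10l, Rpl22l1, Rpl39l, Rps27l, Rpl7l1 and Rps4l). With 100-base windows the values were -0.548 and -0.721. The paralogs left out include low members with few or no shared windows (Rpl3l, Rpl10l and Rpl39l), which run against the trend. Pseudogenes with many shared windows and few or no counts, such as Rps12l1 and Rps3a2, were kept and run with it. These are descriptions across genes, all counted in the same 4 libraries, and carry no test. Among the 84 members with an annotated coding sequence, 16 had under 50% of coding windows shared and a median of 188 RPKM, 38 had 50% or more but not all shared and a median of 40.4 RPKM, and 30 had all coding windows shared and a median of 4.07 RPKM. The last class still held Rpl41 at 157 ± 69.8 RPKM (SD, n = 4). The sources used here do not say how the authors treated reads that match several places, and the part of such reads in these levels was not tested.

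As examples of this sharing, 1 coding window each is printed for 3 of 14 members picked for printing. They are a gene with few shared windows and the 2 of the 14 whose windows recur in most other genes. Rpl8 had 63 of 722 coding windows elsewhere (8.73%), and the window shown (coding bases 633 to 682) occurs in 1 other gene. The printed window of Rpl23a (coding bases 250 to 299) occurs in 17 other genes and that of Rps12 (coding bases 329 to 378) in 22. The windows are printed without capitals, since the whole stretch was compared, and come from GENCODE vM21 transcripts.
Rpl8: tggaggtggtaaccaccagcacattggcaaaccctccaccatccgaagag
Rpl23a: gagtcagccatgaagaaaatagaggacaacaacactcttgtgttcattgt
Rps12: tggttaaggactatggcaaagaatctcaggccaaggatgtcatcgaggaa
Against 878 RPKM for Rpl8, Rps12 stood at 5.54 ± 1.59 RPKM and Rpl23a at 0.606 ± 0.258 RPKM (SD, n = 4). All 419 coding windows of Rpl23a and all 347 of Rps12 occur elsewhere. Windows of some members outside the 14 recur more widely, at differing levels. A window of Rpl7a (42.0 RPKM) occurs in 45 other genes, of Rpl21 (4.23 RPKM) in 44 and of Rps2 (80.0 RPKM) in 33.

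**Figure D2:**
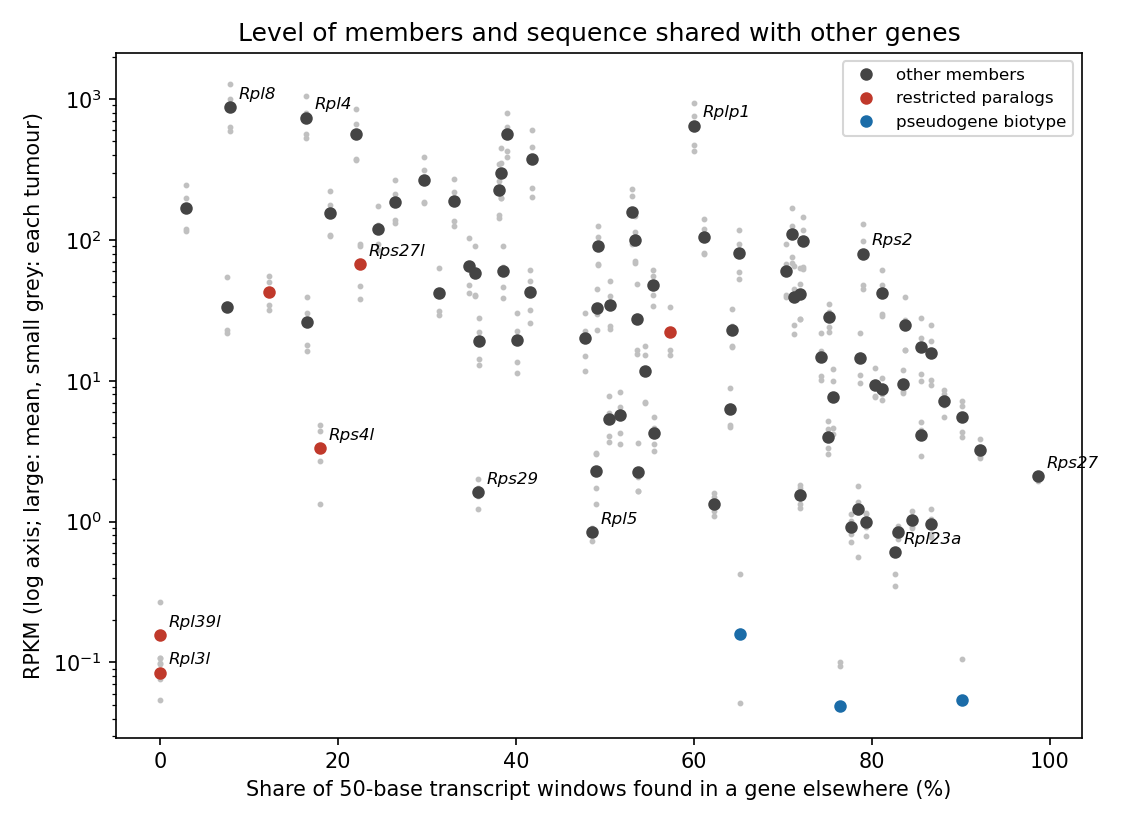
RPKM on a log axis against the share (%) of a member's 50-base transcript windows found in a gene elsewhere; large points are means of 4 tumours, small grey points single tumours, and members at 0 counts in every tumour or not reported here are not drawn. Members under 50 RPKM take up most of the right side, and Rpl3l and Rpl39l are low with no shared window.

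Between tumours the members moved nearly as a block. Together they took 0.696% (T14), 0.723% (T10), 1.52% (T8) and 1.23% (TUN) of all counts, a mean of 1.04 ± 0.402% (SD, n = 4). The 15 members with under 25% of transcript windows shared took a mean of 0.460%. The 46 with 25 to 75% shared took 0.528% and the 28 with over 75% shared 0.0541%. This is a share of the deposited counts, and the part of reads that match several places in it was not tested. For each of the 79 members at a mean of 1 CPM, the log2 CPM was set against its own 4-tumour mean. The median of these deviations was -0.41 (T14), -0.44 (T10), 0.61 (T8) and 0.25 (TUN), a range of 1.05 log2 units, against 0.02, 0.00, -0.02 and -0.00 over all 14320 genes at that level. Without T8 the range was 0.683. The large subunit (-0.39, -0.40, 0.61 and 0.25) and the small subunit (-0.42, -0.46, 0.61 and 0.25) gave nearly the same medians. Once the library medians of the members were taken off, the median SD of a member over the 4 tumours was 0.14 log2 units, against 0.53 before. For all genes both were 0.30, but their library medians lie near 0, so taking these off could change little. The SD also fell in other gene lists, from 0.70 to 0.11 for mitosis genes and from 0.20 to 0.11 for mitochondrial ribosomal protein genes. It was 0.23 before and after for genes of mTOR and Myc control. In bulk RNA, fewer cells of a type and less RNA per cell cannot be told apart.

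Of the 79 members, 67 were highest in T8, 6 in T14, 6 in TUN and 0 in T10, where 24.5% of all genes at that level were highest in T8. Both T8 and TUN stood above both T14 and T10 for 71 of the 79 members, against 32.0% of all genes, and 66 had the order T8, TUN, then the other libraries. The split into these pairs was read from the data, is no grouping in the labels and was given no test. The highest library exceeded the lowest by 2-fold or more for 51 of 79 members, against 30.6% of all genes, with a median ratio of 2.15 and a range of 1.11 to 3.64. The edgeR goodness of fit, which asks whether a gene varied more than genes of like abundance, called 0 of 81 members tested, against 4.34% of 14266 genes. DESeq2 called 0 of 81 as dispersion outliers, against 78 of the 14266 genes. At an unadjusted p under 0.05 in edgeR stood 3 members, Rplp0, Rps19 and Rps2, against 1196 of all genes tested, and the lowest adjusted p was 0.463. On simulated data the goodness of fit seldom called changes of the size of the members' spans, so these counts do not show that members were stable, and the test takes no account of many genes shifting together.

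Markers of other cells and of division moved between the same libraries. Median deviations of the 17 neuron markers were 1.41 (T14), 1.41 (T10), -1.19 (T8) and -2.08 (TUN), with 15 of them past the goodness of fit. Astrocyte markers (16 genes, 11 passing) gave 1.33, 0.76, -0.86 and -0.98, and mature oligodendrocyte markers (16 genes, 8 passing) 0.52, 1.28, -0.82 and -0.78. Microglia markers (16 genes, 0 passing) gave 0.03, -0.27, 0.02 and 0.22. The 21 mitosis genes gave -0.48, -0.69, 0.41 and 0.75, and the 16 S-phase genes -0.71, -0.44, 0.42 and 0.65. All 21 mitosis genes and 14 of 16 S-phase genes were highest in TUN, whereas 6 of 79 ribosomal protein genes were. For comparison by merged exon length, 445 genes outside the family with a length up to 1000 bases had medians of -0.03, -0.18, 0.10 and 0.11. The 1809 with 1000 to 2000 bases had -0.01, -0.13, 0.05 and 0.09. Merged lengths of members run beyond both classes, so neither class is matched to the family. The part of host cells, division or transcript length in the members' shift was not tested.

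**Figure D3:**
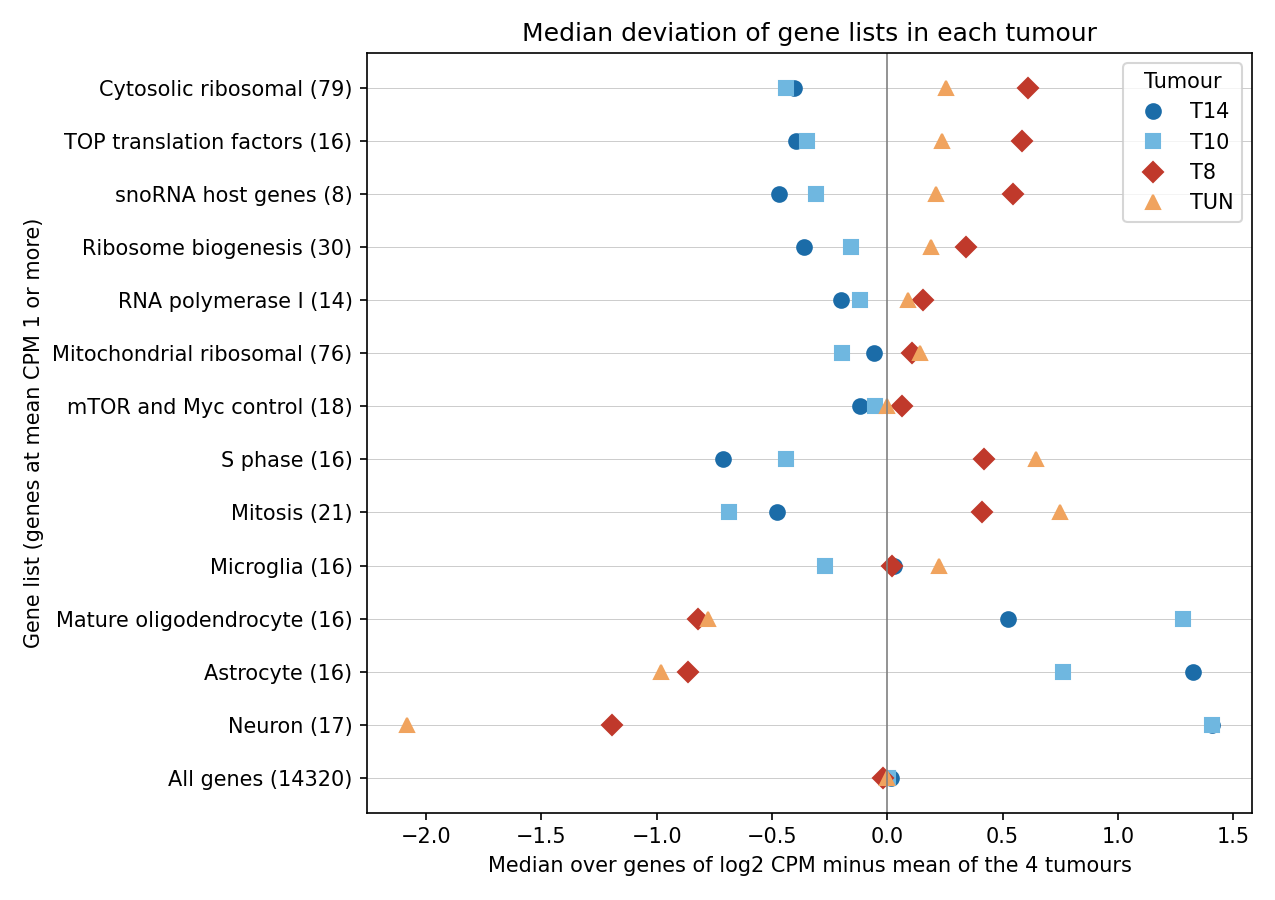
Median over the genes of each list (number of genes in brackets) of log2 CPM minus the mean of the 4 tumours, with 1 point per tumour. T8 lies furthest to the right for the cytosolic ribosomal genes, at 0.61, and TUN for mitosis genes, at 0.75, while neuron genes run the other way.

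The stalk recruits elongation factors to the ribosome and is formed by Rplp0 with Rplp1 and Rplp2. Rplp0 (chromosome 5, 115559467 to 115563727) stood at 335 CPM (T14), 386 (T10), 1006 (T8) and 758 CPM (TUN), a ratio of 3.0 between the highest and the lowest library. Rplp1 stood at 232, 210.0, 462 and 373 CPM, and Rplp2 at 123, 110.2, 242 and 195 CPM. For all 3 genes T8 and TUN lay above T14 and T10 with no overlap, as for 89.9% of members at a mean of 1 CPM. Rplp0 spread more than its partners, whose ratios were both 2.20. None passed the edgeR goodness of fit (adjusted p = 0.463 for Rplp0).

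The widest spans among members at a mean of 5 CPM were those of Rps19, Rpl26, Rplp0, Rps28, Rps2 and Rpl3. Rps19 (chromosome 7, 24884371 to 24889806), a small subunit protein and the gene most often mutated in Diamond-Blackfan anaemia, stood at 77.5, 73.1, 228 and 136 CPM in T14, T10, T8 and TUN, a ratio of 3.11 with an adjusted p of 0.465 in edgeR. Rpl26, at the tunnel exit and known for binding p53 mRNA, stood at 31.1, 36.2, 93.7 and 65.1 CPM (ratio 3.02). Rps28 stood at 6.13, 6.80, 17.8 and 14.5 CPM, Rps2 at 82.0, 87.5, 236 and 180.0 CPM, and Rpl3, which sits near the catalytic centre, at 31.0, 34.9, 87.5 and 63.0 CPM. Each of these genes was highest in T8, second in TUN and lower in both other libraries. Of the 18 genes of a Diamond-Blackfan anaemia list, 15 (83.3%) were highest in T8, near the 84.8% of all members at a mean of 1 CPM. As in the whole family, 0 passed the goodness of fit. Of the 8 proteins listed at the tunnel exit, 7 reached a mean of 1 CPM and all 7 were highest in T8, as most members were. The exception by level was Rpl23a.

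Rpl5 and Rpl11 bind Mdm2 when ribosome assembly is disturbed, and did not share the shift to the same degree. Rpl5 (chromosome 5, 107900502 to 107909005) stood at 3.55 CPM (T14), 3.46 (T10), 2.85 (T8) and 3.30 CPM (TUN), lowest in T8. Rpl11 (chromosome 4, 136028265 to 136053428) stood at 3.20, 2.97, 4.27 and 4.02 CPM, with a ratio of 1.44. All coding windows of both genes occur in genes elsewhere, and the span of Rpl5 overlaps that of Fam69a on the other strand. Reads from a stretch that both genes share could not be separated in these libraries. Spans of members that followed the shift overlap such genes too, among them Rps28 (Kank3) and Rpl3 (Syngr1). The part of such reads was not tested. The genes made as fusions with ubiquitin or a ubiquitin-like protein were similar: Rps27a stood at 2.62, 2.48, 3.60 and 3.44 CPM, and Fau at 9.72, 6.92, 7.63 and 6.70 CPM, highest in T14. Rpl36al, which the symbol rule leaves out, stood at 24.6, 21.8, 35.9 and 37.2 CPM.

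Members without T8 and TUN both above T14 and T10 included Rps27, Rps13, Rpl5, Fau, Rps29, Rpl36a and Rps4l, named after their values were seen. Those named other than Rps4l belong to the class whose coding windows all occur elsewhere. In that class 21 of 28 members at a mean of 1 CPM had the order, with a median ratio of 1.66 between the highest and the lowest library. In the class with 50% or more but not all windows shared it was 37 of 37 members with a median ratio of 2.31, and in the class under 50% it was 13 of 13 with 2.12. Rpl8, of the class under 50%, stood at 549, 512, 1099 and 868 CPM, with the same order as the other members of that class. Rps27, with 98.6% of its transcript windows elsewhere, stood at 2.04, 2.24, 2.26 and 2.19 CPM, the smallest ratio of all at 1.11. Members with wholly shared coding windows also had lower counts, and the part of either in the smaller spans was not tested.

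**Figure D4:**
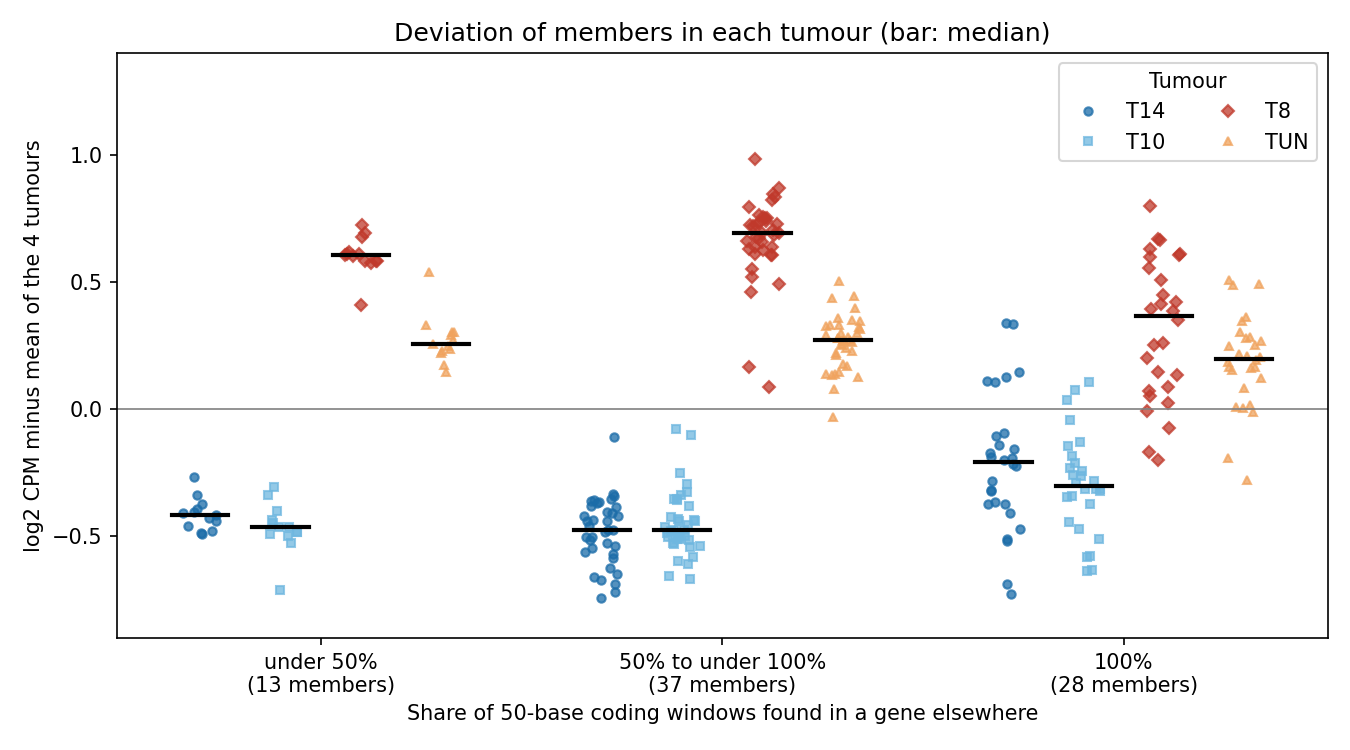
Log2 CPM minus the mean of the 4 tumours for the 78 members with a coding sequence and a mean of 1 CPM, by the share of coding windows found elsewhere; each point is a member in a tumour and bars are medians. In the first 2 classes the T8 and TUN points lie above the T14 and T10 points of the same class throughout, and in the 100% class the clouds overlap.

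In the pair Rps27l and Rps27 the paralog stood above its parent. Rps27l, a p53-induced variant protein of the small subunit, stood at 38.4 CPM (T14), 31.2 (T10), 76.5 (T8) and 74.2 CPM (TUN), and exceeded Rps27 by 4.84 ± 0.64 log2 units of RPKM (SD, n = 4) in 4 of 4 tumours. Their coding sequences are 252 bases each with 60 mismatches (76.2% identity). The stretch of coding bases 61 to 120 is printed as an example, with its 10 mismatches in capitals (GENCODE vM21 transcripts). The rest of the 60 lie outside it.
Rps27: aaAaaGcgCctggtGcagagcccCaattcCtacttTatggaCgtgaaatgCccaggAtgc
Rps27l: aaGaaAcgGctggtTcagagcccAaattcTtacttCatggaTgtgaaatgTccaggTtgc
Of the 203 coding windows of Rps27 all 203 occur in other genes, against 98 of 203 (48.3%) for Rps27l. The ratio between the genes is therefore uncertain in a way that the SD over tumours does not cover.

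The other listed paralogs differed widely. Rpl22l1, the paralog that can replace Rpl22, stood at 32.8, 30.2, 66.6 and 45.5 CPM and Rpl22 at 247, 271, 509 and 371 CPM, a log2 ratio of RPKM of -2.45 ± 0.11 (SD, n = 4). Rpl7l1 stood at 90.5, 82.5, 145 and 130.0 CPM and lay below Rpl7 (191, 184, 396 and 307 CPM) by a log2 ratio of -1.18 ± 0.16. Both pairs kept their ratio within narrow limits while all 4 genes were highest in T8. Coding windows found elsewhere were unequal in both pairs, at 82.6% for Rpl22l1 and 31.0% for Rpl22. They were 21.9% for Rpl7l1 and 77.5% for Rpl7. The size of these ratios is therefore also uncertain in a way that the SDs do not cover. Rps4l ran against its parent, at 4.57, 4.15, 1.26 and 2.55 CPM where Rps4x stood at 105, 102, 239 and 190.2 CPM. Rps4l is a processed pseudogene by GENCODE vM21, and its span overlaps that of Tmtc1 on the opposite strand. Reads from a stretch that both share could not be told apart. The muscle paralog Rpl3l had 4, 4, 3 and 2 counts, the testis paralog Rpl39l 5, 2, 3 and 2 counts, and the testis paralog Rpl10l 0 counts in every library, which allows up to 0.134 CPM in a library.

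**Figure D5:**
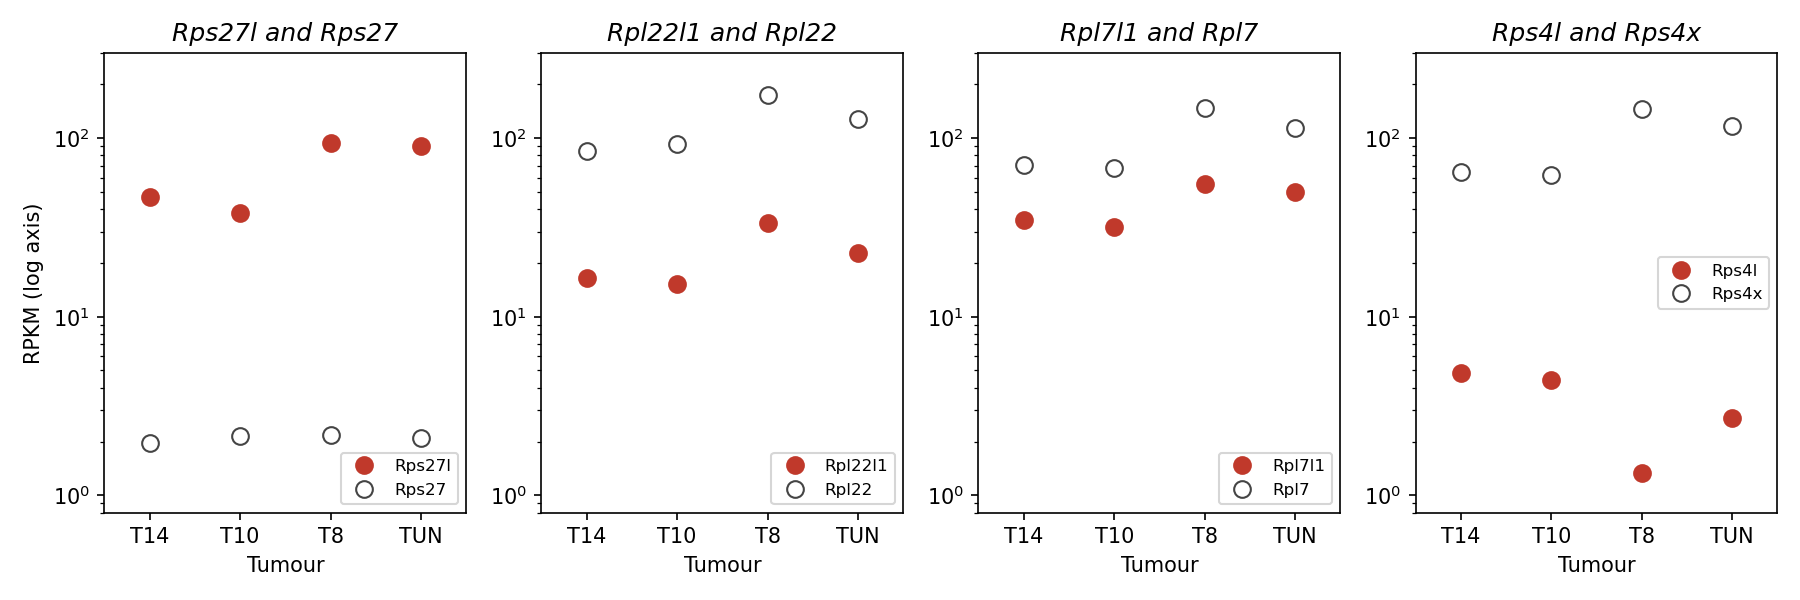
RPKM on a log axis in each tumour for 4 paralogs (filled) and their parent genes (open). Rps27l lies above Rps27 in every tumour, Rpl22l1 and Rpl7l1 run below and alongside their parents, and Rps4l falls where Rps4x is highest.

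Further members did not reach 1 CPM in all 4 tumours. Rpl29 had 21, 11, 26 and 32 counts in T14, T10, T8 and TUN, Rpl24 19, 18, 25 and 26, Rpl19 21, 20, 28 and 26, and Rps29 27, 21, 25 and 31. These encode proteins of the common ribosome, and their transcript windows found elsewhere ran from 35.8% (Rps29) to 79.3% (Rpl19). Rpl23a had 16, 17, 7 and 8 counts, and its span overlaps that of Tlcd1 on the other strand. Rps3a3 had 0, 1, 8 and 3 counts, Rps3a2 1, 0, 2 and 1, Rpl6l 0, 0, 2 and 2, and Rps12l1 0 in every library. GENCODE vM21 gives these last 4 a pseudogene biotype. Of the members below 1 CPM in some tumour, Rpl29, Rpl24, Rpl19 and Rps29 were tested in edgeR and did not pass, and the other 8 fell under the filter on low counts.

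A pyrimidine run at the start was more frequent among member promoters than among others. RefSeq promoters (GRCm38.p6, 250 bases before to 50 after each start) were matched for 64 members, 76 promoters in all. A run of 8 or more C or T on the coding strand that reaches into the 15 bases on either side of the start occurred in 33 of 76 (43.4%), against 17.6% of all 32851 promoters, 17.4% of those of genes detected in all 4 tumours and 17.3% of those of mitochondrial ribosomal protein genes. The examples below are chosen for their levels or shifts described above, from 30 bases before to 20 after the start, with the longest run near the start in capitals. Rpl4 and Rpl13a are among the highest members, Rplp2 is of the stalk, Rps6 and Fau are low, and Rps3 has no such run.
Rpl4: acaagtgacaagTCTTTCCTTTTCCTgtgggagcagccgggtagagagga
Rpl13a: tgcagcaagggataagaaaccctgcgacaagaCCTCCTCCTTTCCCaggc
Rplp2: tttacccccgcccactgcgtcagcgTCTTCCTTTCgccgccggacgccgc
Rps6: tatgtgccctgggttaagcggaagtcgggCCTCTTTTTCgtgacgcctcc
Fau: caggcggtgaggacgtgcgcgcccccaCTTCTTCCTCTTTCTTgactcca
Rps3: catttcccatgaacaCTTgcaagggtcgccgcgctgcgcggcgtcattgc
They lie at chr9:64173357-64173406 (Rpl4, plus strand), chr7:45128726-45128775 (Rpl13a, minus), chr7:141447621-141447670 (Rplp2, plus), chr4:86857348-86857397 (Rps6, minus), chr19:6057917-6057966 (Fau, plus) and chr7:99483690-99483739 (Rps3, minus).

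Members with and without the run had nearly the same shift between libraries. Median deviations were -0.40, -0.43, 0.59 and 0.24 in T14, T10, T8 and TUN for the 32 members with a run, and -0.40, -0.44, 0.62 and 0.25 for the 28 members at a mean of 1 CPM that have a promoter entry and no run. Rps3, without one, stood at 534, 515, 1094 and 887 CPM. Other letters were searched on both strands of the whole 300-base window, and matches may overlap one another or the run. CCGGAAG, the core that ETS factors bind, was in 35.5% of member promoters, 16.5% of those of detected genes and 34.7% of mitochondrial ribosomal ones. In the same order, CGCGAGA was in 19.7%, 5.07% and 8.0%, AAGATGG, a core bound by YY1, in 17.1%, 6.81% and 17.3%, and TATAAA in 9.21%, 6.98% and 6.67%. A match describes letters in a window and is no evidence of binding.

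Genes that work with the ribosome were read beside its proteins. All 16 translation factors and other genes with a TOP motif were highest in T8, with median deviations of -0.40 (T14), -0.35 (T10), 0.58 (T8) and 0.24 (TUN). The elongation factor Eef2 stood at 2322, 2408, 4314 and 2809 CPM, Eef1a1 at 1654, 1608, 3801 and 3036 CPM, and the ribosome-bound scaffold Rack1 at 629, 649.9, 1669 and 1224 CPM. The 8 host genes of small nucleolar RNAs, which also begin with such tracts, were all highest in T8 (-0.47, -0.31, 0.55 and 0.21), among them Gas5 at 80.0, 96.7, 212 and 140.3 CPM, Zfas1 and Snhg6. Of 30 ribosome assembly genes, 24 were highest in T8 (-0.36, -0.16, 0.34 and 0.19), with the nucleolar proteins Ncl at 646, 933, 1080.0 and 855 CPM, Npm1 at 142, 146, 302 and 241 CPM, and Nop58 at 63.8, 114, 140.4 and 113 CPM. Npm1 is in the TOP list as well. None of these genes passed the edgeR goodness of fit.

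RNA polymerase I and the upstream regulators had medians nearer 0, a difference that was not tested. The 14 polymerase I genes had medians of -0.20, -0.12, 0.15 and 0.09, with 11 of 14 highest in T8 and 7 of 14 with T8 and TUN both above the other libraries, with Ubtf at 212, 190.8, 228 and 206 CPM. The 18 genes of mTOR and Myc control had medians of -0.12, -0.05, 0.06 and -0.00, with 8 of 18 highest in T8 and 7 of 18 with both above, and the most abundant were Rheb, Larp1 and Tsc2. A single one passed the edgeR goodness of fit, Eif4ebp1, the inhibitor of cap-dependent translation that mTOR inactivates, at 7.86 CPM (T14), 20.5 (T10), 90.6 (T8) and 56.5 CPM (TUN) (adjusted p = 0.000826). Myc, named after its values were seen, stood at 40.3, 53.0, 96.1 and 77.9 CPM.

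The mitochondrial ribosome, a separate particle with its own proteins, served as a family of like function. Its 78 protein genes, 76 of them at a mean of 1 CPM, had medians of -0.06 (T14), -0.19 (T10), 0.11 (T8) and 0.14 (TUN), with 42 highest in TUN and 24 in T8. T8 and TUN both stood above T14 and T10 for 58 of 76 (76.3%), a share nearer to that of the cytosolic members (89.9%) than to that of all genes. Their median ratio of the highest to the lowest library was 1.35, and 1 of 76 reached 2-fold. The median log2 RPKM of the detected mitochondrial genes lay below that of the detected cytosolic ones by a difference of -0.65 (T14), -0.78 (T10), -1.61 (T8) and -1.05 (TUN), a mean of -1.02 ± 0.42 (SD, n = 4). By these medians the 2 families lay closest in T14 and furthest apart in T8. The size of the gap depends on which members are taken. Detected members with under 25% of transcript windows shared had median log2 RPKM of 6.59, 6.64, 7.63 and 7.24. Those with over 75% shared had 2.49, 2.78, 3.22 and 3.12, against 3.79, 3.75, 3.99 and 4.02 for the mitochondrial genes. The part of reads that match several places in this gap was not tested.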

How the data were processed

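Counts of reads per gene were deposited by the authors as 1 table for 4 tumours, and per the submitters' processing notes the tools were STAR and featureCounts and the build mm10. The sources used here give no versions, strand setting or treatment of reads that match several places. The table names GENCODE vM8 and its symbols were matched for 46451 of 46946 genes. Column names match no sample title, so each column was used as a tumour of the single group, with 0 columns left aside. Nothing in the labels describes the tumours beyond separate samples, so p-values measure only the spread between these samples.

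Counts were scaled by TMM in edgeR 4.0.16 (R 4.3.3), giving CPM and, with the deposited exon length, RPKM. Log2 CPM used a prior count of 2, and log2 RPKM a pseudocount of 0.1. An edgeR model with an intercept alone and trended dispersion (biological coefficient of variation 37.6%), after filterByExpr, gave the goodness of fit, adjusted by Benjamini-Hochberg over 14266 genes with a threshold of 0.05. It was tested on simulated data, where it seldom called changes as small as the members' spans and called most of the large ones. A count of 0 allows up to 3 counts, 0.122 to 0.134 CPM, for counting error only. DESeq2 dispersion outliers, other scalings, filters, pseudocounts and leaving out each tumour were alternatives. Named genes are the 6 highest and 6 lowest detected members by RPKM, the 6 largest ratios at a mean of 5 CPM, members below 1 CPM in any tumour, the role lists, and the 3 most abundant and called genes of other lists. Members, lists and rules were chosen with earlier results of these data known. Values of a few genes are not reported here, although counts and medians over the family include them.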

Additional observations from a re-analysis of the deposited data

Results flagged for a closer look

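In 186 values looked at with Dixon's ratio, for the members and the genes of the other lists, 2 had 1 tumour far from the other 3, past the 95% critical value for 4 samples. Chance passes about 1 in 20 such groups. Tpt1, a growth-related gene with a TOP motif, had a ratio of 0.830, with 492 CPM in T8 against 179.6 in T14, 233 in T10 and 217 in TUN. Taf1c, a subunit of the polymerase I selectivity factor, had a ratio of 0.975, with 12.5 CPM in T8 against 11.8 in each of the others, a small difference that stands out through the closeness of the rest. No ribosomal protein gene passed, and the highest ratio among them was 0.777, that of Rpsa.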

How the results depend on the processing

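With DESeq2 size factors, library totals alone, no filter on low counts, any 1 tumour left out or DESeq2 dispersion outliers, 0 members passed the goodness of fit, and the lowest adjusted p of a member over all settings was 0.195. The share of counts ran from 0.882% to 1.16% with 1 tumour left out. The range of the median deviation was 0.683 to 1.09 with 1 tumour left out, the lowest without T8, and 1.04 to 1.09 under the other settings. The count of members with T8 and TUN both above T14 and T10 was 71 of 79 under each scaling, and 54 of 57 among members with at most 75% of windows shared. With a tumour left out, which makes the condition weaker, it was 71 of 78 to 74 of 81, while the count over all genes rose from 4587 to between 5774 and 6110. All settings for this count were added after the data were seen, as was the range over the same 57 members (1.08). The mitochondrial minus cytosolic level ran from -1.15 to -0.828 with a tumour left out, was -0.98 with pseudocount 1 and -0.74 without length correction. No paired analysis was possible because the columns carry no replicate numbers and there is 1 group. With 4 libraries, differences of the size seen in the family were not called for any single member, whether at high or low counts.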
